A study of Mus musculus with 4 samples.

Results

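The set held 10 genes of lymphocyte regulation: the transcription factor genes Bcl11a, Bcl11b, Ets1 and Runx3, and the cytokine genes Lta, Ltb, Tnf, Ifng, Il2 and Il10. They were selected on earlier log2 ratios of these same arrays, so their values are given as a description, with no test. A member's probes were the non-control probes of both arrays that carried its name, alone or together with a neighbouring gene that shares the promoter. Of the 10 genes, 9 had probes, 51 in all, and Runx3 had none. Neighbouring probes of one name at most 1000 bp apart formed a region, and the members had 12 of the 19133 regions on the arrays.

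The study addressed how DNA methylation in mouse tissues differs with age. Intestinal DNA of mice of the inbred strain C57BL/6, from Jackson Laboratories, was hybridised to 2 custom Agilent arrays, chromosomes 1 to 8 on the first and 9 to 19, X and Y on the second. Cy3 marked the DNA of mice aged 3 months and Cy5 the DNA of mice aged 32 months on both arrays, and no array had the dyes exchanged. Each array thus held 1 sample per age, and a difference between the ages, between the animals and between the dyes cannot be told apart. The header of the first array calls its samples WT. Whether an age's DNA came from 1 mouse or a pool, which sex the mice had and how methylated DNA was told from unmethylated DNA are points not given in the sources used here, so a higher value is reported as more signal. The labelled tissue could not be checked against expression markers, because DNA was hybridised. In DNA of a whole tissue, a different share of a cell type and a different signal per cell cannot be told apart.

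Bcl11b and Bcl11a are related zinc finger factors. Bcl11b commits progenitors to the T cell lineage, and Bcl11a serves in B lymphoid development and in silencing fetal globin genes. Ets1 and Runx3 act in T, NK and other lymphoid cells. Lymphotoxin beta, the product of Ltb, anchors lymphotoxin alpha, the product of Lta, in the membrane, and this complex is needed for lymph nodes and for the Peyer's patches of the intestine. Interferon gamma, interleukin 2, interleukin 10 and tumour necrosis factor are secreted by activated lymphocytes. DNA methylation in mammals sits mainly on cytosines followed by guanine, called CpG, and promoters of lymphoid genes are commonly methylated in cells that do not use them.

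The probes of Bcl11b and Ltb are printed because these genes held the higher signal at 32 months, with each CpG in capitals and every sequence in the direction in which the file lists it. Lst1-Ltb probe 3, Lst1-Ltb probe 4 and both Ltb probes had log2 ratios above 1, whereas Lst1-Ltb probe 1 and probe 2 did not.
Bcl11b probe 1: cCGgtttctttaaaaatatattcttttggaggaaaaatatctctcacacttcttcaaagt
Bcl11b probe 2: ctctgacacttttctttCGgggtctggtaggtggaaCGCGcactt
Bcl11b probe 3: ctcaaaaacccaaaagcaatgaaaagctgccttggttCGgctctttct
Bcl11b probe 4: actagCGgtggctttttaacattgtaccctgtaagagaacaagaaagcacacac
Lst1-Ltb probe 1: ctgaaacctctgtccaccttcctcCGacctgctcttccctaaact
Lst1-Ltb probe 2: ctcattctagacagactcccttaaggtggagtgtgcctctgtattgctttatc
Lst1-Ltb probe 3: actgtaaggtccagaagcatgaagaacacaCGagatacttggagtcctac
Lst1-Ltb probe 4: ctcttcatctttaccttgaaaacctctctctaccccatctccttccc
Ltb probe 1: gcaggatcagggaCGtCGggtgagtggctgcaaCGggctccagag
Ltb probe 2: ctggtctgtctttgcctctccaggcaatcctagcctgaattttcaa
Ets1 probe 2, shown because it was the brightest member probe at 3 months and dimmer at 32 months: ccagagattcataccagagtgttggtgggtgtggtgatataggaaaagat

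The probes above held 0 to 3 CpG in the Bcl11b and Ltb sequences, and 3 of these 10 probes held none. Among them were Lst1-Ltb probe 4, which had the highest log2 ratio of the whole set, and Ltb probe 2. The 41 other member probes also held 0 to 3 CpG each, 18 of them none, and over all 82850 probes with a position 53.1% held at least 1. A probe can bind a labelled fragment longer than itself, so its own CpG need not be those the signal reflects.

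RefSeq promoter windows of build GRCm38.p6, from 250 bases before to 50 bases after a start site, matched 8 of the 10 genes, Runx3 included, and not Ets1 or Il10. The 250 bases before the start are printed for the genes with higher signal, on the gene's strand and with CpG in capitals. The Bcl11b stretch is chr12:108003415-108003664 on the minus strand and the Ltb stretch is chr17:35194257-35194506 on the plus strand.
Bcl11b promoter: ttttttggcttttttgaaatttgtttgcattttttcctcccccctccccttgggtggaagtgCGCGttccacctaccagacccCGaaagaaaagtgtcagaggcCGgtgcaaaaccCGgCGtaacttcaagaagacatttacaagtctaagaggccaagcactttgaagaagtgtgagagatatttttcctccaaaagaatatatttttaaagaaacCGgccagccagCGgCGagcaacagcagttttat
Ltb promoter: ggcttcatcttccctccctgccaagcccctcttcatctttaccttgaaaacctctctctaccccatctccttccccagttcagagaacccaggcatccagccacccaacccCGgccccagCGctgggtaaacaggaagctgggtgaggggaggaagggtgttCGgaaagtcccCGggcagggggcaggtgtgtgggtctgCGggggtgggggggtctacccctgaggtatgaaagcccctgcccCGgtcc

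The Bcl11b window of 300 bases held 9 CpG, all before the start, and the Ltb window held 7, of which 6 lay before it, against a median of 7 over all 32851 windows. Bcl11a held 23, Tnf 11, Lta 10, Ifng 7 and Il2 2, and the windows of Runx3, which has no probe here, held 8 and 45. Matched by sequence, Bcl11b probe 1 covered bases -90 to -31 and probe 2 bases -193 to -149 of its promoter, with the start site as 0, and Lst1-Ltb probe 4 covered -222 to -176 of Ltb. By the spacing of the files' positions, Bcl11b probe 4 lay at -813 to -760, and the Ltb probes at 158 to 202 and 287 to 332 inside the gene. Of the 9 member probes that matched a window, in 6 genes, 3 followed a first match in the same gene, and these lay exactly where the spacing puts them. The letters CCCGGG, a palindrome with a central CpG that is cut by the enzymes SmaI and XmaI, were searched on both strands as a description. They occurred once in the Ltb window, at -79 to -74, and once in the second Runx3 window, at -37 to -32. The other Runx3 window and those of Bcl11b, Bcl11a, Tnf, Lta, Ifng and Il2 held none. Of all windows 13.5% held these letters, of all probes 0.299%, and of the 51 member probes none.

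A probe's log2 ratio is the log2 of 32-month over 3-month processed signal minus the median of its array. A probe was usable when it stood well above background in at least 1 of the samples, which held for 41 of 51 member probes. A region was measured with at least 2 usable probes, and its value is their median. A call of higher needed a value of 1 or more, a 2-fold difference, with each usable probe above 0, and a call of lower needed the mirror image. The error given is the SD over the probes of a region, which is the spread within 1 pair of samples and not between animals. Spots of 1 control probe repeated over the arrays, 88 on the first and 93 on the second, varied with an SD of 0.26 and 0.19. Their median log2 ratios after centring were -0.17 and -0.16.

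Of the 12 regions 11 were measured, in 8 genes. Bcl11b and the region inside Ltb were called higher at 32 months, none was called lower and 9 were called neither. Over both arrays 309 of 15352 measured regions, 2.01%, were called higher and 97, 0.632%, lower. For the members this was 18.2% higher, a share from which nothing is read because the same ratios chose the genes. Their median was 0.27, against 0.015 for all regions, with 7 regions above 0 and 4 below. Counted by single probe, 10 of 41 usable member probes were at least 2-fold higher, against 6.35% of all usable probes. None was at least 2-fold lower, against 3.35%. These counts use the same ratios and add no separate support. Of those 10 probes 8 belonged to Bcl11b and Ltb.

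**Figure D1:**
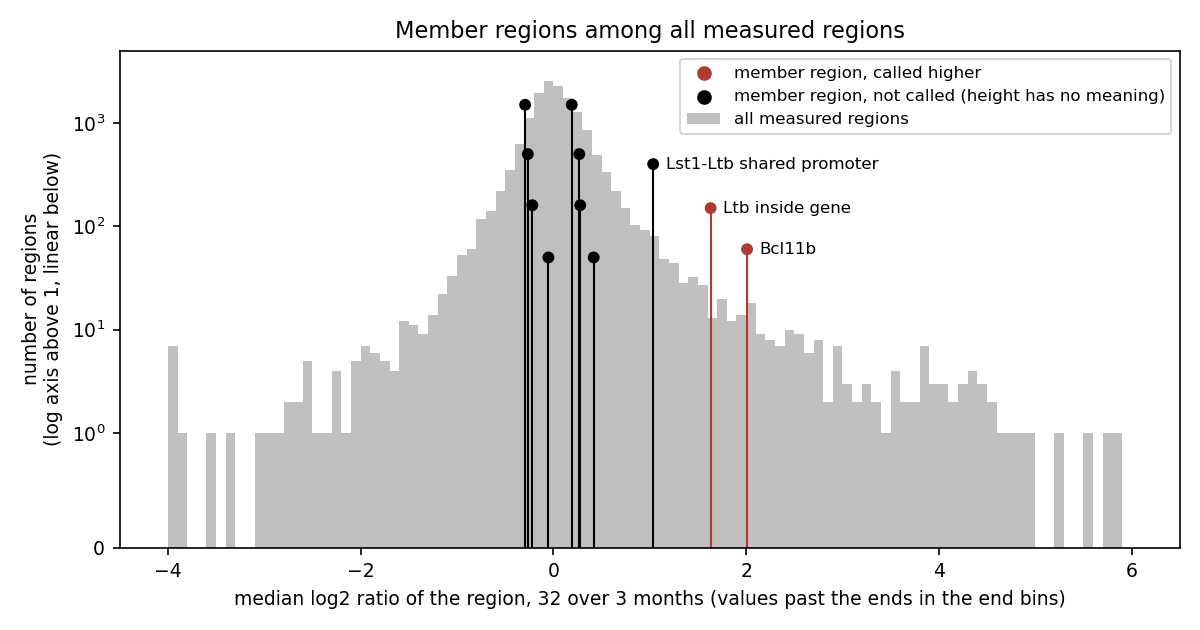
Number of measured regions (log axis above 1) by median log2 ratio of 32 over 3 months in bins 0.1 wide, in grey, with the 11 member regions as lines and dots whose height carries no value. Bcl11b at 2.01 and the region inside Ltb at 1.63 lie in the right tail, and 8 other member regions lie between -0.29 and 0.42.

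Bcl11b had the highest region median of the set, with little spread between its probes. Its 4 probes lie in the promoter at chr12:108451252-108452034, in the positions of the files, whose build is not given in the sources used here. The signal went from 559 to 2190 at the first probe, from 1600 to 5460 at the second, from 2210 to 7540 at the third and from 10700 to 46100 at the fourth. All 4 probes were brighter at 32 months, each by a similar factor, although their signals at 3 months spanned a wide range. The log2 ratios were 2.11, 1.91, 1.91 and 2.25, and the median of 2.01 ± 0.16 (SD over 4 probes) is a 4.03-fold difference. That value stood at percentile 99.1 of all measured regions.

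The nearest measured regions beside Bcl11b lay far off. Cyp46a1, which encodes a cholesterol hydroxylase of neurons, was 329151 bp away and was also called higher, at 1.72 ± 0.37 (SD over 3 probes), with a median signal of 1690 at 3 months and 5220 at 32 months. Vrk1, a kinase gene 2039868 bp away on the other side, was at 0.27 ± 0.34 over 5 probes. The regions most like Bcl11b in median signal at both ages, among 3874 autosomal regions of the same array with at least as many usable probes, were Slc35f1, Lbx1 and Cmtm8. Their distances in log2 signal were 0.12, 0.21 and 0.24. Lbx1, a homeobox gene, was called higher, at 1.83 ± 0.74 over 4 probes. Slc35f1, at 1.37 ± 1.65 over 8 probes, and Cmtm8, at 0.95 ± 1.39 over 6, were not called. Since the match used the signals of both ages, raised ratios were built into it.

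**Figure D2:**
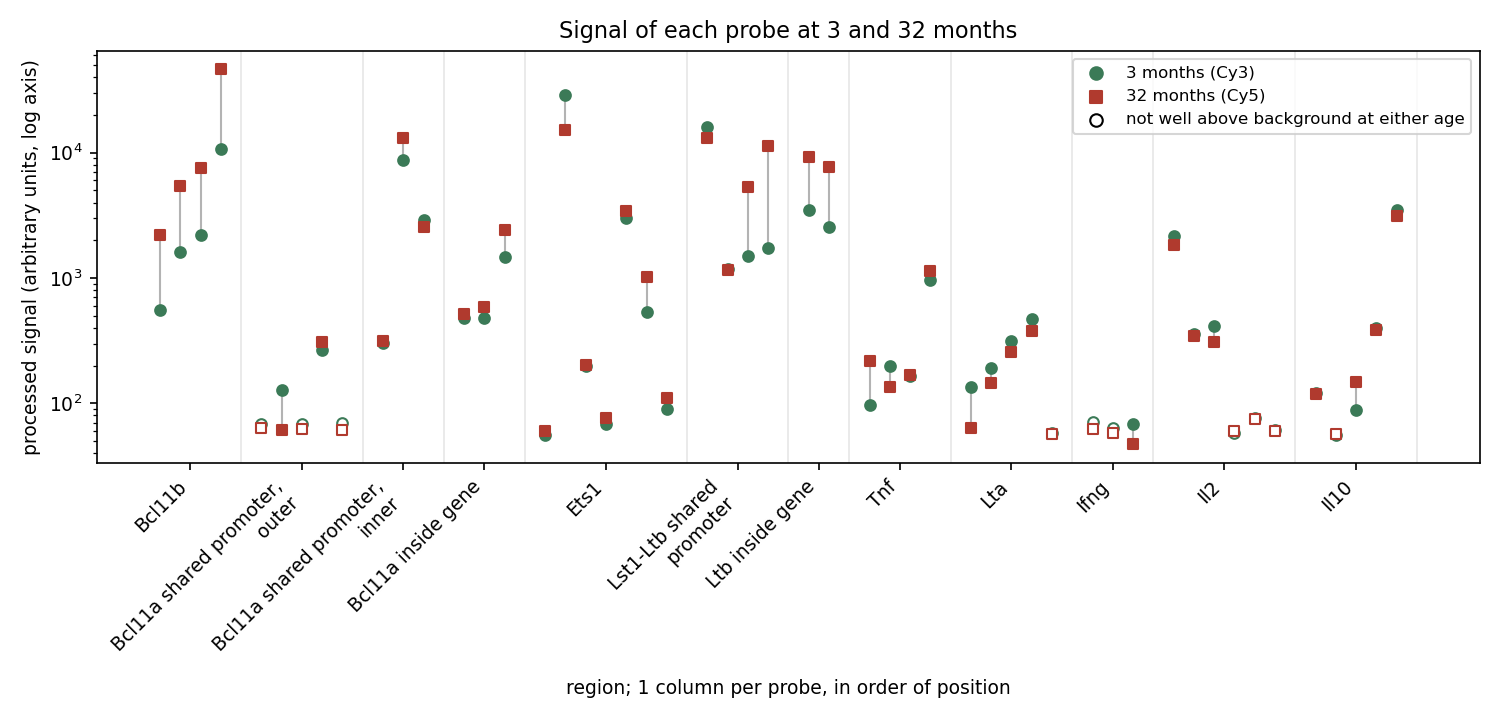
Processed signal (arbitrary units, log axis) of every member probe at 3 months (circles, Cy3) and 32 months (squares, Cy5), by region and in order of position, with open symbols for probes well above background at neither age. Bcl11b, the right-hand part of Lst1-Ltb and Ltb show the widest gaps upward, and Ets1 holds the brightest probe at 3 months, which went from 28900 to 15200.

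Bcl11a, the paralogue of Bcl11b, had 11 probes in 3 regions, none of them called. The outer region of the promoter it shares with A830031A19Rik, at chr11:23975147-23976039, was dim. Only 2 of its 5 probes were usable, with signals of 127 and 268 at 3 months and 61.1 and 306 at 32 months, and the median was -0.29 ± 0.88. The former cleared background at 3 months only, so its ratio of -0.92 is a bound. The inner region, at chr11:23977419-23977980, was bright at its second probe, where the signal went from 8680 to 13000, a log2 ratio of 0.72. Its other probes went from 301 to 312 and from 2900 to 2530, and the median was 0.19 ± 0.40.

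Inside Bcl11a, at chr11:23978277-23978700, the 3 probes went from 481 to 513, from 482 to 585 and from 1480 to 2420. All 3 were above 0, with a median of 0.42 ± 0.32, the highest of the members that were not called apart from Lst1-Ltb. The 3 Bcl11a regions thus had ratios of -0.29, 0.19 and 0.42, against 2.01 in Bcl11b.

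Ets1 encodes the founding member of a family of transcription factors. Its 7 probes, at chr9:32444687-32446229, gave mixed values. The brightest member probe at 3 months, the second, went from 28900 to 15200, a log2 ratio of -0.79. The sixth went from 538 to 1020, a ratio of 1.06, and the fifth went from 2990 to 3410, a ratio of 0.33. The other 4 probes were dim, from 56.2 to 200 at 3 months and from 60.2 to 202 at 32 months, with ratios from 0.15 to 0.42. Bright probes thus differed in opposite directions within the 1543 bp of the region, and the region median was 0.28 ± 0.54. Fli1, another gene of that family 152759 bp away, was at 0.64 ± 0.69 over 4 probes, all above 0, and was not called.

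Ltb, Tnf and Lta are neighbours on chromosome 17, and their 15 probes span 12732 bp. Ltb shares a promoter with Lst1, a gene of leukocytes, on the far side from Tnf. The Lst1-Ltb probes, at chr17:34801640-34802383, split into a pair near 0 and a higher pair. The first went from 16100 to 13100 and the second from 1180 to 1150, with ratios of -0.16 and 0.10. The third went from 1490 to 5300 and the fourth from 1750 to 11200, with ratios of 1.97 and 2.82, the last a 7.05-fold difference. The region median was 1.04 ± 1.44, just past the threshold, and the region was not called because its first probe was below 0.

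Inside Ltb, at chr17:34802717-34802891, the signal went from 3510 to 9190 and from 2540 to 7680. These ratios of 1.53 and 1.74 gave a median of 1.63 ± 0.15 (SD over 2 probes), at percentile 98.8 of all measured regions. Read along the DNA, the 4 probes from the Ltb side of the shared promoter into the gene, over 690 bp, all had higher signal. Their median was 1.85, with a range from 1.53 to 2.82. This group was drawn after the values were seen, so its median is a description only. No probe lay in the 333 bp between the Lst1-Ltb and Ltb regions. The 2 probes on the Lst1 side, 318 bp away, had a median of -0.028. With all 6 probes taken as 1 region, chosen after the values were seen, the median was 1.63 and the region was not called.

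The regions most like Ltb in signal, among 7310, were Crsp3, Abca17-Abca3 and Reep2, at distances of 0.14, 0.20 and 0.20. Because the match used the signals of both ages, raised ratios were built into it. The medians of these regions were 1.16, 2.45 and 1.565, all past the threshold, against 1.63 for Ltb. None was called, because each had a usable probe at or below 0. Their SDs were 1.10 over 4 probes, 2.03 over 3 and 0.70 over 5, against 0.15 over 2 for Ltb. These spreads are not compared, because Ltb has only 2 probes and was picked as a called region. The adjoining Lst1-Ltb region had an SD of 1.44. The nearest measured gene beyond Lst1 was Aif1, a macrophage gene 16559 bp away, at 0.33 ± 0.94 over 3 probes.

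**Figure D3:**
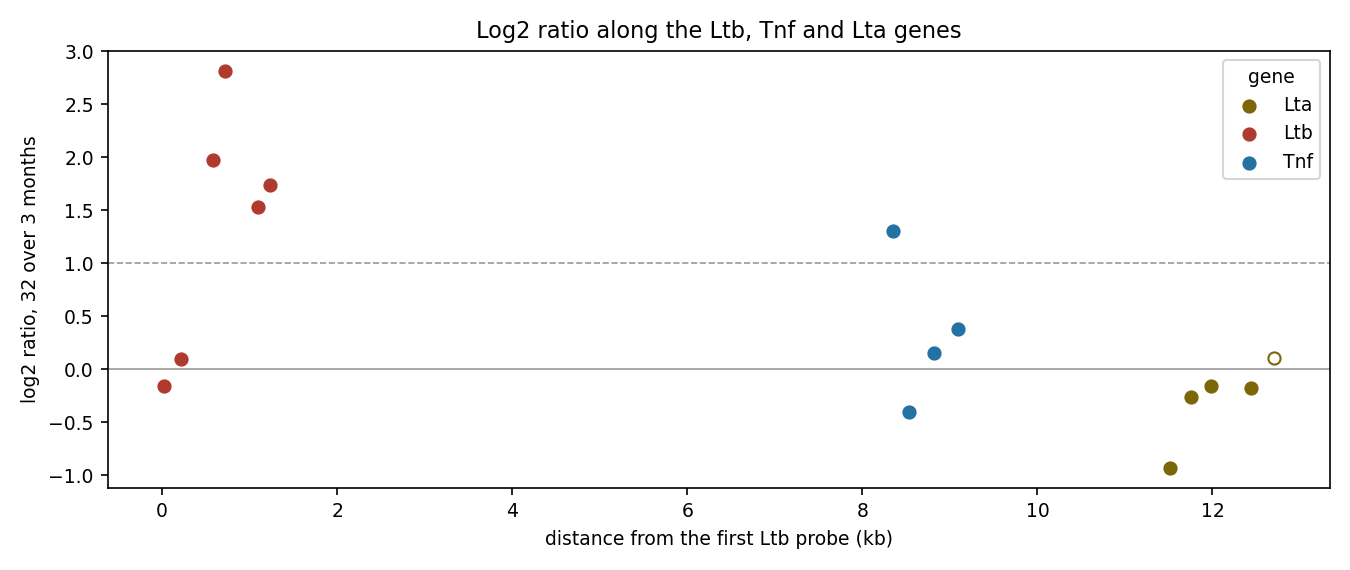
Log2 ratio of 32 over 3 months (vertical axis) of each probe of Ltb, Tnf and Lta by distance in kb from the first Ltb probe, with the dashed line at 1 and an open symbol for a probe well above background at neither age. The 4 Ltb probes between 1.53 and 2.82 stand together, and Lta probes lie at or below -0.16 where usable.

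The Tnf probes start 7075 bp beyond the last Ltb probe, and their region was not called. Its 4 probes, at chr17:34809967-34810756, were well above background at both ages. They went from 96.5 to 217, from 197 to 135, from 165 to 167 and from 964 to 1140. The first, inside the gene, had a ratio of 1.31, and the others had -0.41, 0.16 and 0.38. The median was 0.27 ± 0.71, and the probes lay on both sides of 0.

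Lta followed 2380 bp further, at chr17:34813137-34814371. Its 4 usable probes went from 134 to 63.9, from 191 to 145, from 313 to 255 and from 471 to 378. All 4 were below 0, with a median of -0.22 ± 0.37. The first ratio, -0.93, is a bound because that probe was not well above background at 32 months, and the other 3 lay between -0.26 and -0.16. The fifth probe was at background, 58.2 and 57.1. Lta and Ltb, whose products form one complex, thus had medians of -0.22 and 1.63. Repeated control spots of the same array had a median of -0.16, near that of Lta, so no direction is read for Lta. The next measured region, Nfkbil1-Atp6v1g2, was 29582 bp away at 0.095.

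The secreted cytokines of other loci were not called. Il10, at chr1:132846559-132847658, had 4 usable probes, which went from 121 to 119, from 89.2 to 148, from 402 to 383 and from 3470 to 3110. Only the second of these was above 0, at 0.73, and the median was -0.051 ± 0.41. The brightest Il10 probe, inside the gene, had a ratio of -0.16, smaller than the SD of repeated control spots.

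Il2, at chr3:37317213-37318156, had 6 probes. The usable 3 went from 2180 to 1820, from 355 to 344 and from 414 to 311, all below 0, with a median of -0.26 ± 0.18. The other 3, further upstream in the promoter, read 58.5 to 76.9 at 3 months and 59.8 to 74.4 at 32 months, at background. The usable Il2 probes thus lay inside the gene and next to its start. Il21, a related cytokine gene 105798 bp away, was at 0.38 ± 0.37 over 4 probes.

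Ifng, at chr10:117843014-117843918, could not be measured. Its 3 promoter probes read 71.4, 63.6 and 67.9 at 3 months and 62.4, 57.7 and 47.4 at 32 months. Only the third was well above background, at 3 months alone, and its ratio of -0.38 is a bound. No difference in Ifng was detectable at this signal.

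**Figure D4:**
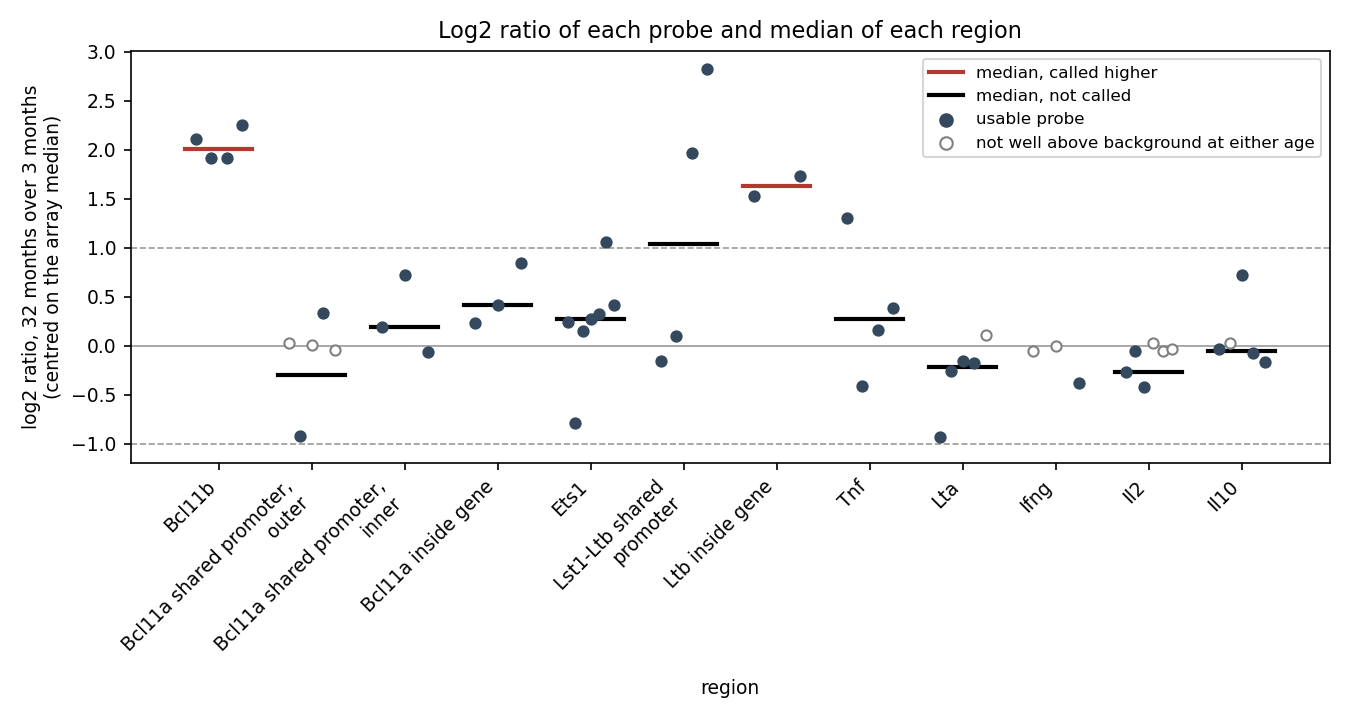
Log2 ratio of 32 over 3 months, centred on the array median, of each member probe (points, open where well above background at neither age) and the median of each measured region (bars, red where called higher), with dashed lines at 1 and -1. The 4 Bcl11b probes lie between 1.91 and 2.25, whereas Lst1-Ltb spans -0.16 to 2.82.

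In order of level, the region medians ran Bcl11b, Ltb, Lst1-Ltb, Bcl11a inside the gene, Ets1, Tnf, Bcl11a inner, Il10, Lta, Il2 and Bcl11a outer. The probes of Bcl11b all lay above those of Ltb, 1.91 to 2.25 against 1.53 to 1.74, but the Lst1-Ltb probes overlapped both. From Bcl11a inside the gene down, neighbours in this order overlapped in their probes. Without Bcl11b and the Ltb and Lst1-Ltb regions, the other 8 had a median of 0.070, 4 above 0 and 4 below. The autosomal regions of the second array, which holds most of them, had a median of 0.088. At least 2-fold higher were 2 of their usable probes, 1 in Tnf and 1 in Ets1.

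The signal of a probe can depend on its own sequence, so the levels of different probes are not read as differences between genes. The 10 probes at background in both samples were poor in G and C, 18.3% to 42.3%, whereas the 36 above background in both held 30.0% to 66.7%. Over the 51 member probes, which share 2 arrays and unequal numbers per gene, the Spearman rho between the share of G and C and the log2 signal at 3 months was 0.61, and between CpG number and that signal 0.22. The part of base composition in the results was not tested.

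Related genes were read from lists chosen with earlier results of these data known. Of 31 measured regions of other TNF superfamily ligands and receptors, 0 were called higher and 0 lower. Their median was -0.021, with a range from -0.66 to 1.06. The region at 1.06 was past the threshold and was not called because its lowest probe was at -0.33. Other interleukins, interferons and growth factor cytokines gave 0 and 0 of 38, with a median of -0.037 and a range from -1.69 to 0.88. The region at -1.69 went from a median signal of 237000 to 50500. It was not called lower because its highest probe was at 0.997. Receptors and Jak-Stat genes downstream of the member cytokines gave 0 and 0 of 21, with a median of 0.15 and a range from -0.23 to 0.79. Against 2.01% of all regions called higher, these counts of 0 among 21 to 38 regions are near the background.

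Over 50 regions of other lymphocyte transcription factors the median was 0.066, with a range from -1.12 to 1.62, and 0 were called lower. The region at -1.12 was past the threshold and was not called because its highest probe was at 0.072. Another, at 1.23, was not called because its lowest probe was at -0.20. Tbx21, which directs the type 1 helper programme and Ifng expression, went from a median signal of 831.5 to 2255, a ratio of 1.62 ± 0.047 over 4 promoter probes, and was among those called higher.

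Regions of cell type marker genes are given beside these values. In these 7 lists, of 4 to 15 regions each, none was called in either direction. Against 2.01% of all regions called higher and 0.632% called lower, these counts are near the background. T cell markers had a median of -0.12 over 15 regions, from -0.29 to 0.33, and B cell markers -0.034 over 8, from -0.13 to 0.19. NK and cytotoxic cell markers had 0.0053 over 4, from -0.51 to 1.40, and myeloid markers 0.050 over 5, from -0.23 to 0.52. The region at 1.40 was past the threshold and was not called because its lowest probe was at -0.0185. Markers of the intestinal epithelium had 0.13 over 14, from -0.46 to 0.82. Smooth muscle and stroma markers had 0.13 over 13, from -0.46 to 0.98, and endothelium markers -0.096 over 4, from -0.20 to 0.086. The epithelium and stroma lists share the regions that carry the names of 1 gene of each list, at -0.46 and 0.13. The values of all these lists are signals of DNA and not of expression. The part of cell type shares in the Bcl11b and Ltb values was not tested.

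**Figure D5:**
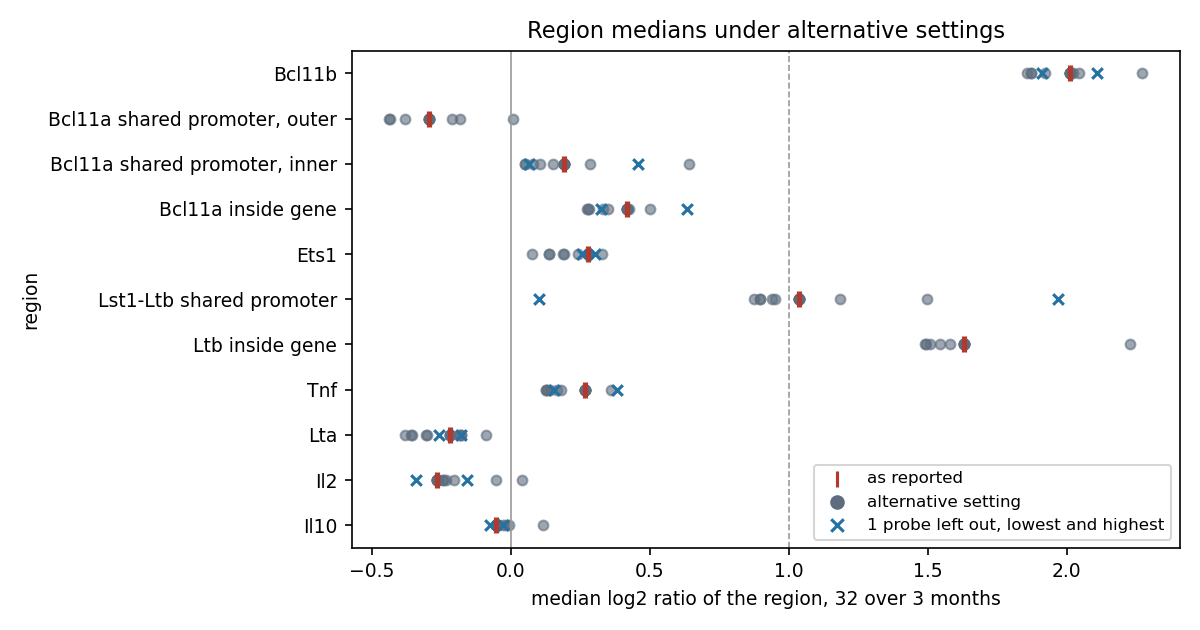
Median log2 ratio of 32 over 3 months (horizontal axis) of each measured member region as reported (red bars), under other settings (grey points) and with 1 probe left out (crosses, lowest and highest). Bcl11b stays between 1.86 and 2.27, Ltb between 1.49 and 2.23, and Lst1-Ltb ranges from 0.10 to 1.97 with the probe left out.

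The values for Bcl11b and Ltb held at or above the threshold under every setting run on them as named regions, of which the minimum of 3 probes left Ltb unmeasured. Bcl11b ranged from 1.86 to 2.27 and the region inside Ltb from 1.49 to 2.23. Lst1-Ltb was called higher with normexp background correction, at 1.499, and without its first probe, at 1.97, and fell to 0.10 without its highest. Il10, Il2 and the outer Bcl11a region, at -0.051, -0.26 and -0.29, each changed sign under 1 setting and have no settled direction.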

How the data were processed

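Two-colour Agilent arrays were read from the deposited scanner files, 1 per array, since the 2 files of an array were identical. The submitters' processing notes name Agilent Feature Extraction 9.1.3.1. Per the file headers, it had subtracted background from the deposited intensity values, removed trends over the array and balanced the dyes linearly. These processed signals were used, and the scanner's deposited log10 ratio only in an alternative. The authors' value table equalled the processed signals in 100% of spots.

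Log2 ratios were centred on the median of all unflagged non-control probes of each array, 0.0044 on the first and -0.14 on the second before centring. Of the members' probes 0 carried an outlier flag, and no spot was saturated. Usable probes made up 74.2% and 76.5% of the 2 arrays, and 272 of 83122 probes had no position and were left out. Regions were formed and called as described in the report. The number of arrays, 1 per set of chromosomes, limits the precision, and no p-value was computed.

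Python 3.11.15, pandas 2.3.3, R 4.3.3 and limma 3.58.1 (loess and normexp alternatives) were used. The members and lists were chosen with earlier results of these data known. Named were all members, the called regions of each list, the nearest measured region on each side and the 3 regions most like each called member. RefSeq sequences (GRCm38.p6) were matched to probes by sequence, with at least 20 bases, never by position. Alternatives covered centring, loess, normexp with an offset of 50, probe filters, flags, means, a gap of 500 bp, at least 3 probes, a 1.5-fold threshold, the scanner's ratio and leaving out 1 probe. One result of the transcription factor list is not reported here.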

Additional observations from a re-analysis of the deposited data

How the results depend on the processing

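The count of 2 member regions called higher became 1 when at least 3 usable probes were required, since the region inside Ltb has 2, and 3 with normexp, which added Lst1-Ltb. It was 2 under the other alternatives, and the count called lower was 0 under all. Over all regions, 309 higher and 97 lower became 678 and 344 at a 1.5-fold threshold, 421 and 20 with normexp, 246 and 56 with dim probes kept, 228 and 60 with at least 3 probes, 241 and 133 uncentred and 242 and 134 with the scanner's ratio. The members' median of 0.27 ranged from 0.13 to 0.30. Removing medians of blocks of spots, centring on usable probes and joining the regions of Ltb or Bcl11a were chosen after seeing the data. The first 2 changed no member call, and joining the Ltb regions ended the call of Ltb at a median of 1.63. The split of the Ltb probes into a group near 0 and a higher group was also made after seeing the data.

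No paired analysis was possible because each age has 1 sample per array and the arrays cover different chromosomes. Leaving out a replicate was not run for the same reason. The dyes were not exchanged, and dye and age cannot be told apart. Ifng and the outer Bcl11a region rest on probes near background, and the Ets1 median is the ratio of such a probe.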
